A study of Rattus norvegicus and Bos taurus with 12 samples.

Results

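The genes described here are 9 components and regulators of the complement system, C1qa, C1qb, C1qc, C1r, C1s, C3, Cfb, Serping1 and Clu, chosen by symbol, in any case, from the deposited tables of calf cardiac fibroblasts (Cfib) and adult rat ventricular myocytes (ARVM). Of the 9 genes, 8 were found among the 7052 genes listed for ARVM, where Cfb was not listed, and 4 (C1QA, C1QB, CFB and CLU) among the 2115 genes listed for Cfib. Clu, C1qa and C1qb were in both tables. The Cfib came from the right ventricular free wall of neonatal calves kept at ambient altitude (CO, 3 libraries) or made pulmonary hypertensive by reduced atmospheric pressure (PH, 3 libraries), and were cultured at low passage, in serum and then without it. The ARVM were isolated with collagenase from healthy adult Sprague Dawley rats. They were sequenced as 3 freshly isolated, untreated preparations (con4, con5 and con6) and as 3 preparations kept for 7 days in medium conditioned by PH Cfib (PH-CM; ha2, ha209 and ha211). No ARVM cultured without PH-CM were analysed here, so time in culture and the medium cannot be told apart, and the methods name a mesh and laminin plates but no sort for the myocytes. As treatment, the labels give cow serum from low or high altitude for all samples, which differs from the methods, and the group names here follow the sample titles and the paper. The paper describes the Cfib libraries as coming from separate animals. The PH Cfib libraries lay closer together than the CO libraries (median coefficient of variation over genes 5.0% against 13.7%), and the reason was not tested. For ARVM no source used here says whether each library is a separate animal, so those p-values measure only the spread between the libraries, which may be technical.

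Complement is a cascade of plasma proteins and their receptors that marks surfaces for removal. In the classical pathway C1q recognises a target and the proteases C1r and C1s, which sit on C1q, cut C4 and C2. In the alternative pathway factor B (Cfb) forms the active enzyme, and both routes cut C3, the central component of the cascade. C1 inhibitor (Serping1) blocks C1r and C1s, and clusterin (Clu) is a secreted chaperone that can also bind the terminal complex. The liver makes most plasma complement, while C1q is made largely by macrophages and related cells, and fibroblasts are a known source of C1r, C1s and C3.

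Both tables hold only genes that the authors had selected for the difference under study. With limma on log2(value + 1) and an adjusted p under 0.05, 97.6% of all ARVM genes and 97.5% of all Cfib genes passed, and the groups did not overlap in 100% of the genes of either table. That a complement gene passed is therefore no result about complement, and the size of each change is set beside that of all listed genes. The ARVM libraries had 12122463 to 18842171 reads on the listed genes, recovered from the deposited values. The depth of the Cfib libraries is unknown. Of 8 cardiomyocyte markers, 7 were listed in ARVM, all higher in the freshly isolated cells, and of 9 fibroblast markers 3 (COL1A2, FN1 and POSTN) were listed in Cfib.

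Upstream sequences are shown for C1qa, C1qb, C1r and C3, the members held in the RefSeq promoter table (rat GRCr8). These genes passed as higher in ARVM, as did 53.9% of all listed genes, and a shared regulation was not tested. Each is the 250 bases before the annotated start, on the strand of the gene (the reads themselves were aligned to rn6), with C1qa at chr5:154419934-154420183 (minus strand), C1qb at chr5:154407828-154408077 (minus), C1r at chr4:159098763-159099012 (plus) and C3 at chr9:2201340-2201589 (minus). Capitals mark GAGGAA, the core bound by the myeloid factor PU.1, on either strand, where TTCCTC is the same core on the other strand.
C1qa: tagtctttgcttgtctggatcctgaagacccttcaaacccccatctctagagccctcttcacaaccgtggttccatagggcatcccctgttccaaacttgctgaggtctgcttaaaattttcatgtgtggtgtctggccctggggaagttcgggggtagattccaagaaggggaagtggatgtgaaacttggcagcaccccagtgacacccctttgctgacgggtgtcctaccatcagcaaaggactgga
C1qb: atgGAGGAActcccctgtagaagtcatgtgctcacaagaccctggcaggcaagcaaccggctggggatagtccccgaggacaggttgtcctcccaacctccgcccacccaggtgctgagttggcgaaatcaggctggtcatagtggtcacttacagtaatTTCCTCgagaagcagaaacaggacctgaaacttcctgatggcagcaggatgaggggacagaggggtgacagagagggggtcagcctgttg
C1r: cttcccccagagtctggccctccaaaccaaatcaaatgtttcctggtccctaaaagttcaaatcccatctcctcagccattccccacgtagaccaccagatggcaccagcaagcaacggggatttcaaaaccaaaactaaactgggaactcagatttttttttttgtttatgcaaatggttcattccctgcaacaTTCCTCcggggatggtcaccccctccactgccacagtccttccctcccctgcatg
C3: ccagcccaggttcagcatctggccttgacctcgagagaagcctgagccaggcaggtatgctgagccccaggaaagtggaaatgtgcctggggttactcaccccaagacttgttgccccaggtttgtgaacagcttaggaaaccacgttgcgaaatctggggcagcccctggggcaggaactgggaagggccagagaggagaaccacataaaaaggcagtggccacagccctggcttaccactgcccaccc

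The GAGGAA core stood at 247 and 90 bases before the start of C1qb and at 55 bases before that of C1r, and 23.3% of the 33469 rat promoters of the same length hold it. The looser C/EBP pattern TTNNGNAA was found before C1r and C3, as in 37.2% of all promoters. The interferon-gamma activated pattern TTCNNNGAA was found before C1qa, at 90 bases, as in 7.67% of all promoters. The interferon-stimulated response element (ISRE, in 3.41% of all promoters), TGANTCA (6.34%), the NF-kappaB motif (0.314%) and TATAAA (12.9%) were searched on both strands and matched none of the 4 windows. No match overlapped one of another motif, and the matches describe these letters only. In GRCr8 the 3 C1q genes are direct neighbours, in the order C1qb, C1qc, C1qa, as are C1r and C1s, and C2 is the neighbour of Cfb.

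In ARVM, all 8 listed genes passed as higher in PH-CM than in freshly isolated cells, as 53.9% of all listed genes did (43.7% passed as lower). Of the 8, 7 reached a log2 fold change of 1 or more, a size reached upward by 32.3% of all listed genes. The log2 fold changes of the 8, each given ± its standard error (SE), ran from 0.68 to 7.53 with a median of 4.54, against 0.37 over all listed genes. The 3 C1q chains, the proteases C1r and C1s, and C3 rose most, Serping1 rose less, and Clu, by far, least. The values of these genes are normalized counts, reads divided by 1 size factor per library, and are not scaled by gene length, so levels are compared within a gene only. In these bulk samples, more cells of a type and more RNA per cell cannot be told apart.

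**Figure D1:**
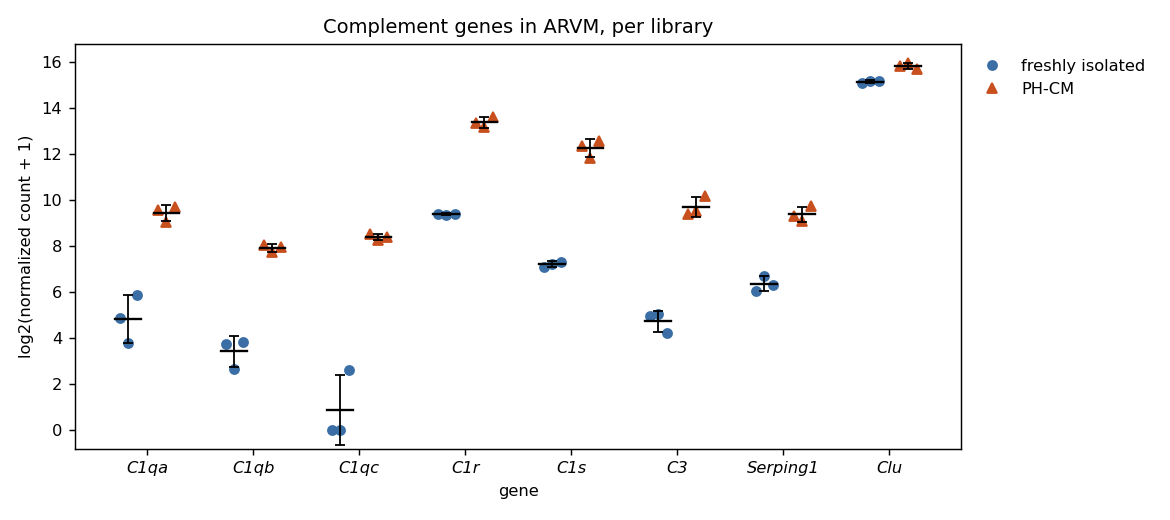
Level of the 8 listed complement genes in each ARVM library, as log2(normalized count + 1), for freshly isolated cells (circles) and cells kept in PH-CM (triangles), with the mean (long bar) and SD of the 3 libraries. In every gene the triangles lie above the circles, with the widest gap in C1qc (log2 fold change 7.53) and the narrowest in Clu (0.68).

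C1qa, the A chain of C1q, had 28.5, 12.9 and 57.8 normalized counts in con4, con5 and con6 and 758, 535 and 844 in ha2, ha209 and ha211. The freshly isolated libraries differed among themselves more in proportion than the PH-CM libraries did, on 18, 12 and 56 reads. For C1qa the log2 fold change was 4.60 ± 0.49 (SE; limma, adjusted p = 6.44e-05). C1qb, the B chain, had 12.7, 5.36 and 13.4 normalized counts against 267, 211.4 and 245. That change was of like size, a log2 fold change of 4.48 ± 0.37 (SE; limma, adjusted p = 1.64e-05), or 3.64 with a pseudocount of 10. C1qc, the C chain, had no read in con4 and con5, a value of 5.17 in con6, and 367, 306 and 341 normalized counts in PH-CM. The log2 fold change was 7.53 ± 0.69 (SE; limma, adjusted p = 3.00e-05), the 22nd highest of the 7052 listed genes. The fold of C1qc rests on 5 reads in freshly isolated and 1243 reads in PH-CM ARVM, a ratio per unit of size factor of 172 with a 95% exact interval of 73.5 to 530.5 that covers counting error only. Its change on the log2 scale was 8.40 without con6, 9.81 with a pseudocount of 0.1 and 4.92 with one of 10.

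C1q is assembled from equal numbers of the 3 chains, so the reads of the chains were set against each other within each library, a comparison chosen after the values were seen. The ratio of C1qb to C1qa was 0.444, 0.417 and 0.232 in freshly isolated and 0.352, 0.395 and 0.291 in PH-CM ARVM. These groups overlapped, with a difference of −0.12 in the log2 ratio (exact permutation test, two-sided p = 0.8, where the smallest p that 3 libraries against 3 allow is 0.1). The ratio of C1qc to C1qa was 0, 0 and 0.0893 in freshly isolated and 0.484, 0.573 and 0.404 in PH-CM ARVM. The groups did not overlap (exact permutation test on the ratio, two-sided p = 0.1), although in con4 and con5 it compares 0 reads with 18 and 12. The listed genes whose pattern over the 6 libraries was most like that of C1qc were Steap1, Tmem119 and Fen1 (Pearson r of log2 values 0.999 each). With 2 separated groups of libraries such a value is common, and 35.4% of the other listed genes had an r over 0.9.

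The markers on a list for macrophages and other leukocytes moved in the same direction as C1q, as did 53.9% of all listed genes. Of 14 on the list, 13 were listed in ARVM and all 13 rose, with a median log2 fold change of 3.80. Their summed level was 295 to 351 normalized counts in freshly isolated and 8165 to 12575 in PH-CM ARVM. Lyz2, which encodes lysozyme, made up the largest part of this sum of counts in PH-CM ARVM. It had 26.8 to 55.4 normalized counts in freshly isolated and 5075 to 7730 in PH-CM ARVM. The sum is not scaled by gene length, so it is compared between libraries only. Of the listed markers, Ptprc, Aif1 and Cybb each had no read in 2 of the 3 freshly isolated libraries. The other listed markers had reads in all 3. Spi1, which encodes PU.1, had 25.3, 9.64 and 3.10 normalized counts in freshly isolated and 49.2, 44.0 and 46.5 in PH-CM ARVM, a log2 fold change of 2.18 ± 0.63 (SE; limma, adjusted p = 0.0105). Summed over the 3 chains, C1q was lowest in ha209 among the PH-CM libraries (1053 against 1391 and 1430 normalized counts), and so were the leukocyte, the fibroblast and the smooth muscle sums. The part of these cells in the C1q values was not tested.

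**Figure D2:**
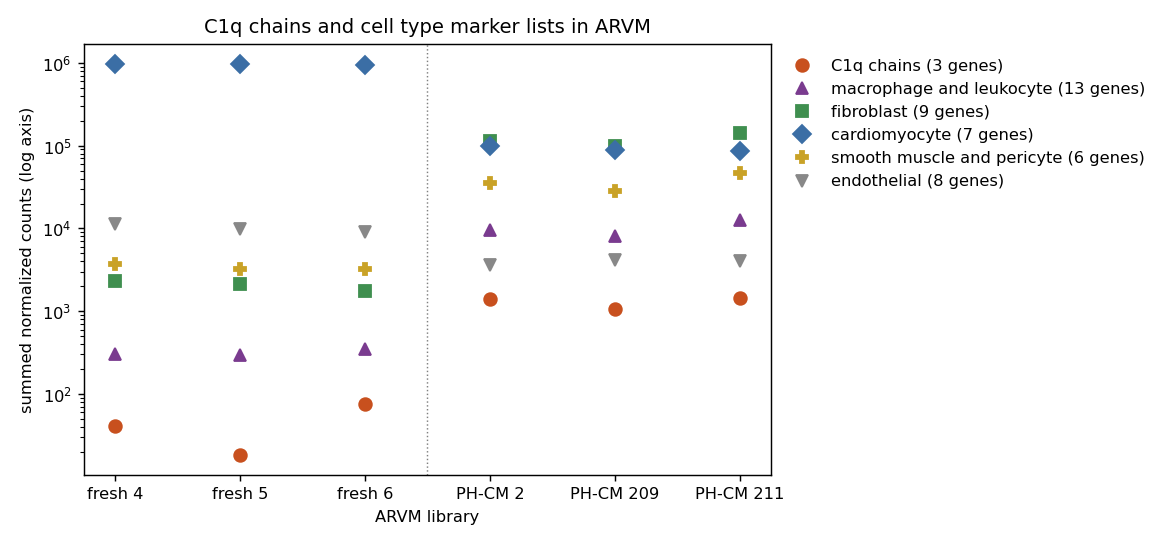
Summed normalized counts on a log axis of the 3 C1q chains and of 5 cell type marker lists in each ARVM library, freshly isolated on the left of the dotted line and PH-CM on the right. C1q, leukocyte, fibroblast and smooth muscle sums are higher in the 3 PH-CM libraries, whereas cardiomyocyte and endothelial sums are lower.

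C1r, the first protease of the classical pathway, had 684, 662 and 683 normalized counts in freshly isolated ARVM and 10562, 9139 and 12674 in PH-CM ARVM. The freshly isolated libraries lay close together, on 432 to 661 reads. C1r rose with a log2 fold change of 3.98 ± 0.11 (SE; limma, adjusted p = 1.05e-07). C1s, the protease that C1r activates, had 135, 151 and 160 normalized counts against 5229, 3653 and 6123. Its log2 fold change was 5.04 ± 0.18 (SE; limma, adjusted p = 2.61e-07), higher than in 96.1% of the listed genes. Of the pair, which sit side by side in the genome, C1s had the larger log2 fold change. The ratio of C1s to C1r was 0.197, 0.228 and 0.234 in freshly isolated and 0.495, 0.400 and 0.483 in PH-CM ARVM, a difference of 1.05 in the log2 ratio (exact permutation test, two-sided p = 0.1, the smallest possible). Leaving out single libraries gave 0.98 to 1.15, and this ratio too was chosen after the values were seen.

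Serping1, the C1 inhibitor, had 66.5, 104 and 79.5 normalized counts in freshly isolated and 635, 552 and 848 in PH-CM ARVM. It rose with a log2 fold change of 3.01 ± 0.23 (SE; limma, adjusted p = 1.01e-05). Its log2 fold change was smaller than those of the proteases it blocks. The ratio of C1s to Serping1 was 2.02, 1.45 and 2.01 in freshly isolated and 8.23, 6.62 and 7.22 in PH-CM ARVM, a difference of 2.02 in the log2 ratio (1.87 to 2.10 with each library left out). The ratio of C1r to Serping1 was 10.3, 6.37 and 8.58 against 16.6, 16.6 and 14.9, a difference of 0.97 in the log2 ratio (0.79 to 1.13). Neither ratio overlapped between the groups, and both had the smallest p of the exact permutation test (two-sided p = 0.1). These ratios too were chosen after the values were seen. The groups did not overlap in 100% of the listed genes, so ratios of genes with unlike fold changes can separate as well. No share over other gene pairs was computed for any of the ratios. These ratios use values that are not scaled by gene length, so only their change between groups can be read, not their level.

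C3, on which the pathways converge, had 30.1, 32.1 and 17.6 normalized counts in freshly isolated and 670, 749 and 1156 in PH-CM ARVM. The log2 fold change was 4.97 ± 0.30 (SE; limma, adjusted p = 3.48e-06), and ha211 stood above the other PH-CM libraries. Clu had the smallest change, from 35022, 36514 and 37556 to 58311, 63468 and 53143 normalized counts. The log2 fold change was 0.68 ± 0.10 (SE; limma, adjusted p = 0.000299), and 59.9% of the listed genes had a lower one. Clu was also the member with the most reads, 22130 to 36355 in freshly isolated ARVM, so its smaller change was measured with little counting error. The markers on the fibroblast list, like those on the leukocyte list, moved in the same direction as all 8 members, as did 53.9% of all listed genes. All 9 markers of the fibroblast list rose, from a sum of 1740 to 2315 normalized counts in freshly isolated to 99453 to 143958 in PH-CM ARVM. Thy1 had no read in 2 freshly isolated libraries, while the other fibroblast markers had reads in every freshly isolated library. Of the 6 smooth muscle and pericyte markers, 4 rose and 2 fell, with a sum of 3229 to 3713 in freshly isolated and 28434 to 46247 in PH-CM ARVM. Of the 8 endothelial markers, 7 fell and 1 rose. The part of these cell types in the values of the members was not tested. All 8 genes also passed as higher under each of the 13 alternatives, among them the median of ratios (53.4% of all listed genes higher), edgeR (96.6% of all listed genes passed, 53% higher) and DESeq2 (94.6%, 51.6% higher).

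**Figure D3:**
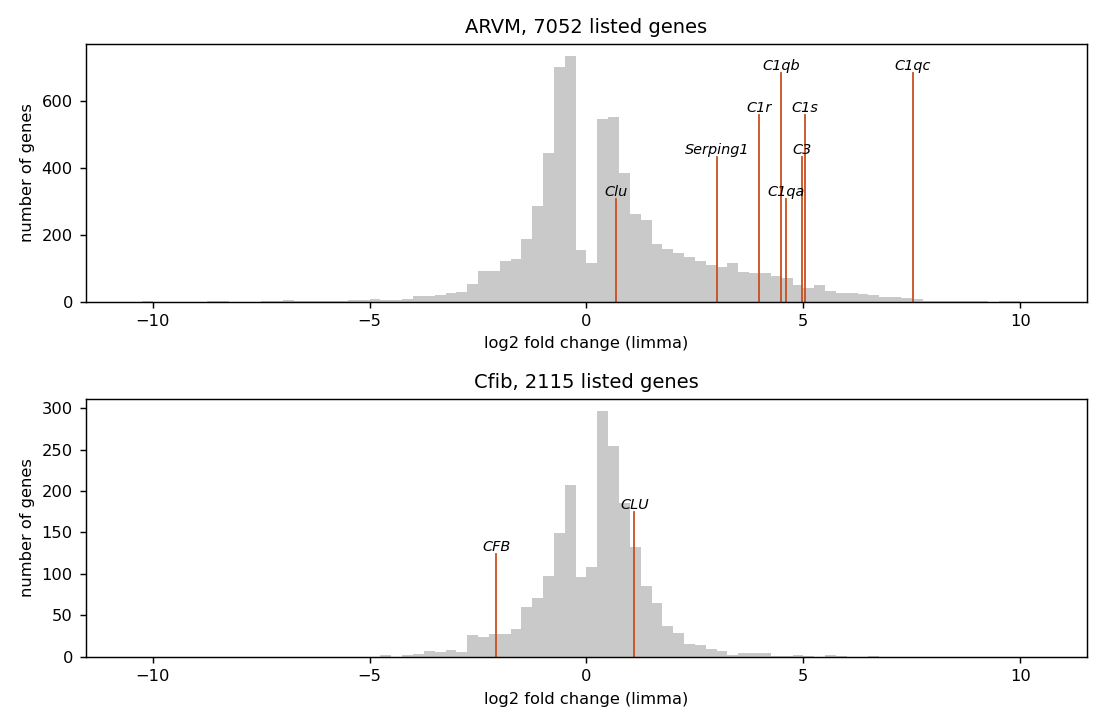
Number of listed genes by log2 fold change in ARVM (top) and Cfib (bottom), with lines at the complement members for which a fold change is given. In ARVM, 7 members lie between 3.01 and 7.53 and Clu lies at 0.68, and in Cfib CFB lies at −2.08 and CLU at 1.10.

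Of 52 further complement genes on a list, 19 were listed in ARVM, 18 of which rose and 1 fell, where 53.9% of all listed genes passed as higher and 43.7% as lower. Their median log2 fold change was 2.24, against 0.37 over all listed genes. Of the 19, 14 reached a log2 fold change of 1 or more upward, as 32.3% of all listed genes did. Among the recognition molecules and proteases, Ptx3, a pentraxin that binds C1q, had the largest change. It had 25.3, 8.57 and 9.30 normalized counts in freshly isolated and 3319, 1607 and 3956 in PH-CM ARVM, a log2 fold change of 7.65 ± 0.47 (SE; limma, adjusted p = 3.40e-06), the 18th highest of all listed genes, or 6.90 with a pseudocount of 10. Colec12, a scavenger receptor collectin, had 0, 21.4 and 14.5 against 693, 626 and 770 normalized counts. Its change on the log2 scale of 6.63 ± 1.04 (SE) was 5.22 without con4, 7.47 without con5, 7.78 with a pseudocount of 0.1 and 5.16 with one of 10. The substrates of C1s had smaller log2 fold changes than C1s. C2 had a log2 fold change of 2.01 ± 0.23 (SE) and C4a one of 2.24 ± 0.23. C4b had one of 2.32 ± 0.43, but C4a and C4b are near-identical copies between which reads may be split. C1rl, a relative of C1r, had a log2 fold change of 1.93 ± 0.35. Masp1, a protease of the lectin pathway, had one of 0.53 ± 0.08, and 55.2% of all listed genes had a lower one. Fcna, a ficolin, was without reads in con4, con5 and con6 and was at least 9.51-fold higher in PH-CM ARVM against 3 reads over the group. It could be listed only through PH-CM ARVM, so its direction was fixed in advance. Cfd, the protease that cuts factor B, had 13 to 17 reads against 37 to 47, a log2 fold change of 0.87 ± 0.30 (SE; limma, adjusted p = 0.0232). The call for Cfd was lost without con5 (limma, adjusted p = 0.0522), without ha211 (0.0675) and with DESeq2 (0.0866), and its adjusted p over the alternatives started at 0.00365.

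Among the regulators, 3 that sit on the membrane passed as higher. Cd55, which breaks up the C3 convertase, had a log2 fold change of 1.38 ± 0.33. Cr1l, the rodent relative of complement receptor 1, had one of 0.89 ± 0.11, and 65.2% of all listed genes had a lower one. Cd59, which blocks the terminal complex, had one of 0.37 ± 0.08, the size of the median over all listed genes (0.37). Vtn (vitronectin), which also binds the terminal complex, fell from 176, 169 and 136 to 21.2, 46.6 and 27.1 normalized counts, a log2 fold change of −2.37 ± 0.33 (SE; limma, adjusted p = 0.000274). C8g, a subunit of C8, was the terminal component that was listed, with a log2 fold change of 1.62 ± 0.39.

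The 4 listed receptors rose, each by a log2 fold change of 1 or more, as 32.3% of all listed genes did. The receptors of the fragment C5a are C5ar1 and C5ar2. C5ar1 had 3 reads in 1 freshly isolated library and none in the others, against 344 reads in PH-CM ARVM, a ratio of 79.3 per unit of size factor with a 95% exact interval of 26.9 to 386 that covers counting error only. Its log2 fold change of 5.72 ± 0.69 (SE) was 6.56 without con4, 7.999 with a pseudocount of 0.1 and 3.18 with one of 10. C5ar2 had a log2 fold change of 2.73 ± 0.40, or 1.93 with a pseudocount of 10. Itgam and Itgb2, the chains of complement receptor 3 on myeloid cells, had log2 fold changes of 3.02 ± 0.38 and 6.23 ± 0.85. Itgb2 had 6, 7 and 0 reads in freshly isolated and 499, 256 and 535 in PH-CM ARVM, and its value was 6.85 without con4, 5.15 without con6, 7.43 with a pseudocount of 0.1 and 4.52 with one of 10. The direction of the receptors was also that of the markers on the leukocyte list above, and a link between them was not tested.

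**Figure D4:**
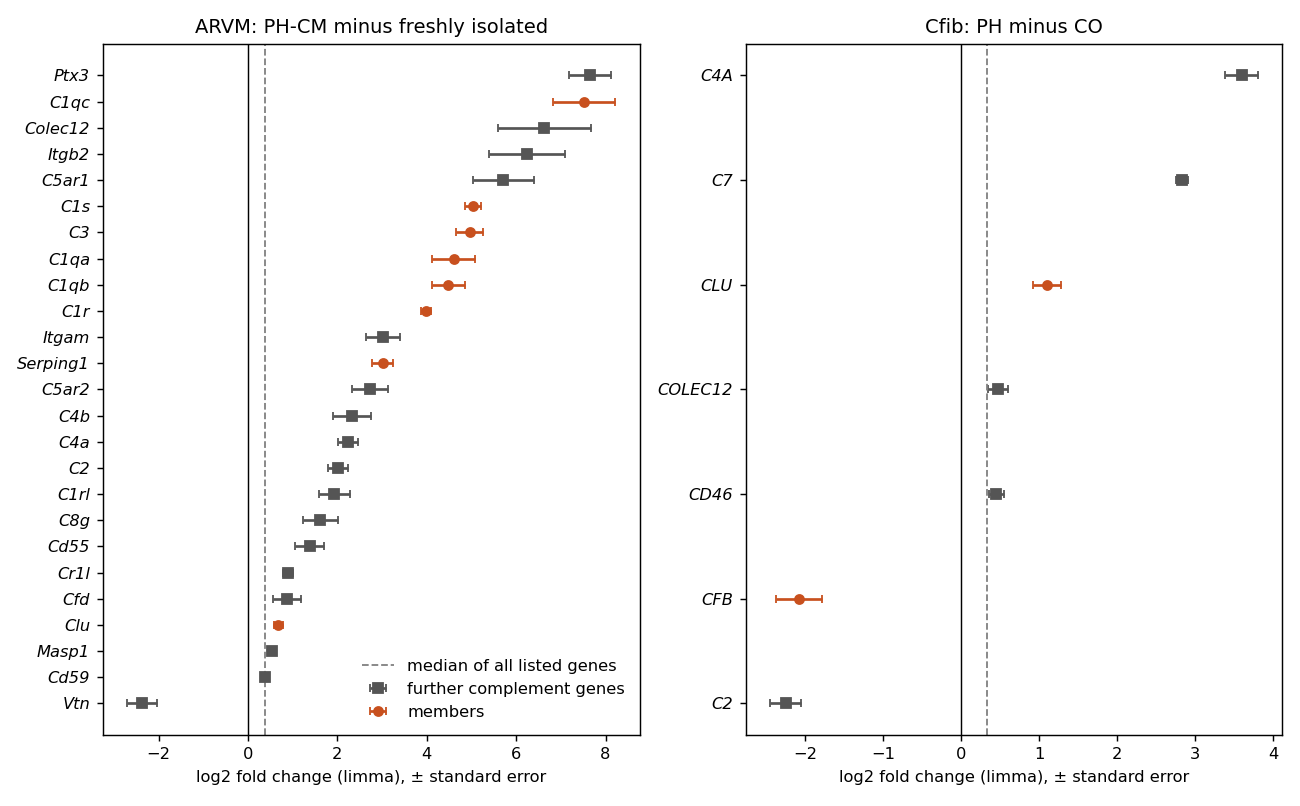
Log2 fold change with its standard error of the complement members (circles) and of the further complement genes named here (squares) in ARVM (left) and Cfib (right), with a dashed line at the median of all listed genes (0.37 and 0.33). Fcna in ARVM and C1QA and C1QB in Cfib, at 0 in all control libraries, are left out. In ARVM Vtn is the gene below 0, and in Cfib CFB and C2 are.

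In Cfib, the listed complement genes did not move one way. CFB and C2, the paralogous proteases of the alternative and the classical pathway, fell in PH Cfib, whereas CLU, C1QA, C1QB and the further genes C4A, C7, CD46 and COLEC12 were higher. All 4 members passed the threshold, 3 as higher and 1 as lower, as did 58.2% and 39.4% of all listed genes. On the log2(value + 1) scale all 4 changed by 1 or more, as 34% of all listed genes did, but for C1QA and C1QB, at 0 in CO Cfib, that size depends on the pseudocount. Both could be listed only as higher, since a gene at 0 in CO Cfib enters the list through PH Cfib. The unit of the Cfib values is not settled, so levels are compared within a gene only. A rescaling of the libraries (median of ratios) moved the median gene by −0.27 on the log2 scale, so falls in PH Cfib became larger and rises smaller. After it 80.8% of all listed genes passed (39.7% higher), and with the PH libraries averaged into 1 sample 49.1% did (25% higher).

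CFB (factor B) had 6724, 5328 and 7511 in CO Cfib 1, 2 and 3 and 1016, 1785 and 1956 in PH Cfib 1, 2 and 3. Every PH library was below every CO library, and PH Cfib 1 was the lowest. The log2 fold change was −2.08 ± 0.29 (SE; limma, adjusted p = 0.000678), −2.26 to −1.79 when single libraries were left out and −2.37 after the median of ratios. C2 had 188, 135 and 120 in CO and 23.7, 32.8 and 33.3 in PH Cfib, with a log2 fold change of −2.25 ± 0.20 (SE; limma, adjusted p = 0.000100). The ratio of CFB to C2, also chosen after the values were seen, was 35.9, 39.5 and 62.6 in CO and 42.9, 54.4 and 58.8 in PH Cfib. These groups overlapped (exact permutation test, two-sided p = 0.7), with a difference of 0.17 in the log2 ratio (0.02 to 0.42 without single libraries, and −0.11 with a pseudocount of 10). The listed genes most like CFB over the 6 libraries were GPR84, C29H11orf68 and LOC515697 (Pearson r 0.998, 0.996 and 0.995), where 29.99% of the other listed genes had an r over 0.9.

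**Figure D5:**
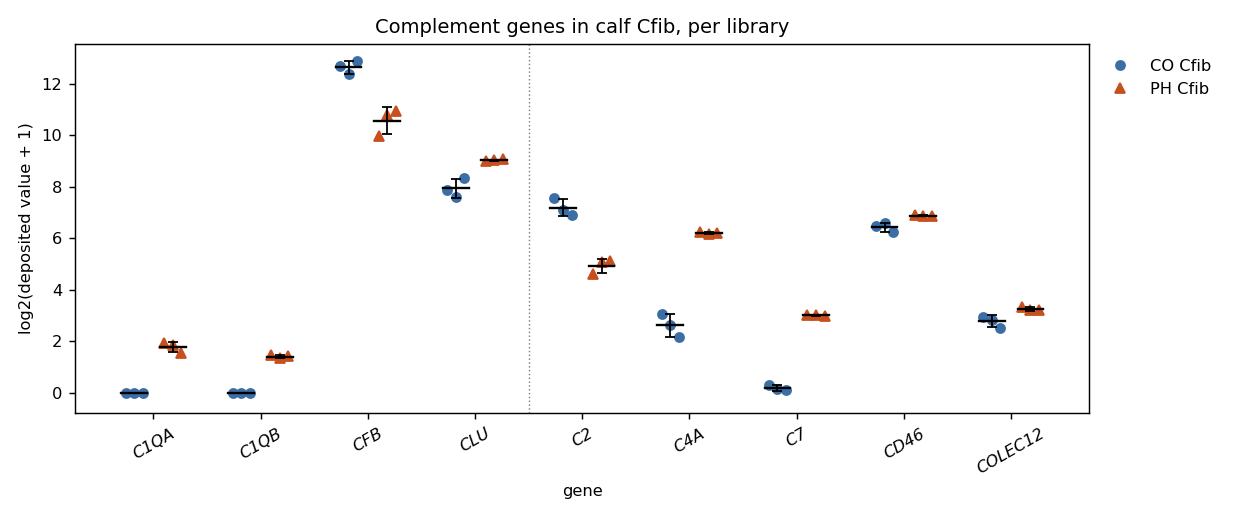
Level of the 4 listed complement members (left of the dotted line) and of 5 further complement genes in each Cfib library, as log2(deposited value + 1), for CO (circles) and PH Cfib (triangles), with the mean and SD of the 3 libraries. CFB and C2 are lower in PH Cfib, the other genes are higher, and C1QA and C1QB are at 0 in the 3 CO libraries.

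CLU had 235, 193 and 322 in CO and 519, 525 and 534 in PH Cfib. The PH libraries differed little and the CO libraries widely, with CO Cfib 3 the highest of them. The log2 fold change was 1.10 ± 0.18 (SE; limma, adjusted p = 0.00127), 0.82 after the median of ratios. Averaging PH Cfib into 1 sample, which tests fewer samples, left the value at 1.10 but not the call (limma, adjusted p = 0.0518, with the alternatives starting at 1.67e-05). C1QA was listed at 0 in the 3 CO libraries and at 2.76, 2.63 and 1.92 in PH Cfib. C1QB was likewise listed at 0 in CO and at 1.72, 1.56 and 1.65 in PH Cfib. The authors kept genes above a minimum value in at least 1 condition, so C1QA and C1QB could be listed only through PH Cfib. Their direction was therefore fixed in advance. No fold change or p-value is given for these genes, and C1QC was not listed. Of the 14 leukocyte markers, 5 were listed in Cfib. CD68, LAPTM5, FCER1G and TYROBP were higher, and CD14 lower, in PH Cfib, with a sum of 12.9 to 15.7 in CO and 16.4 to 17.6 in PH Cfib. TYROBP was at 0 in 1 CO library. Since the unit of the values is not settled, the sums of marker lists are compared between libraries only. Of the 6 smooth muscle and pericyte markers, 5 were listed, 4 higher and 1 lower (a sum of 97.4 to 133 in CO and 225 to 236 in PH Cfib), and the 3 listed fibroblast markers were higher (2214 to 3119 and 7229 to 7556). The part of these cell types in the values of the members was not tested.

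Of the 52 further complement genes, 6 were listed in Cfib, 5 higher and 1 lower, the latter being C2, where 58.2% of all listed genes passed as higher and 39.4% as lower. C4A had 7.40, 5.16 and 3.52 in CO and 75.7, 71.2 and 73.5 in PH Cfib, with a log2 fold change of 3.59 ± 0.21 (SE; limma, adjusted p = 1.99e-05), the 21st highest of the 2115 listed genes. It was 3.81 with a pseudocount of 0.1 and 2.45 with one of 10, and reads may be split between C4 copies. C7, a component of the terminal complex, had 0.228, 0.101 and 0.0758 in CO and 7.13, 7.14 and 6.90 in PH Cfib, with a log2 fold change of 2.83 ± 0.08 that was 4.98 with a pseudocount of 0.1 and 0.75 with one of 10. Of all listed Cfib genes, 56.1% had a lower log2 fold change than CD46 and 57.6% a lower one than COLEC12. CD46, the membrane cofactor for factor I, had a log2 fold change of 0.45 ± 0.09. It did not pass after the median of ratios (0.16, limma, adjusted p = 0.137) or, at an unmoved value of 0.45, when PH Cfib were averaged (0.0895), and its adjusted p over the alternatives started at 0.000815. COLEC12 had one of 0.47 ± 0.13 and likewise did not pass under these settings (adjusted p = 0.132 and 0.137, the alternatives starting at 0.00502), with a value of 0.22 after the median of ratios and with a pseudocount of 10, and of 0.47 with PH Cfib averaged.

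Of the members and further genes, 7 were listed in both tables, and the experiments share no libraries. C1qa, C1qb, Clu, Colec12 and C4a were higher in both PH Cfib and PH-CM ARVM. With limma 58.2% of all listed Cfib genes and 53.9% of all listed ARVM genes passed as higher. The share higher in both among all genes listed in both was not computed, so the agreement is no result about complement. In Cfib, C1QA and C1QB could be listed only as higher, and COLEC12 did not pass after the median of ratios. C2 went in opposite directions, with a log2 fold change of −2.25 in Cfib and 2.01 in ARVM. The species, the cells and the contrasts differ, so no test of the difference was made. CFB was not listed in ARVM, nor were C1QC, C1R, C1S, C3 and SERPING1 in Cfib, which does not show that these transcripts were unchanged.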

How the data were processed

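RNA sequencing of 12 libraries was analysed, 3 per group. Per the labels and the methods, the authors sequenced RNA depleted of ribosomal RNA (HiSeq4000), used HISAT2 and StringTie with the bosTau8 (calf) and rn6 (rat) builds, and normalized with DESeq2. Genes above a minimum value were kept and then selected by an unequal-variance test, so all adjustment for multiple testing rests on selected genes. The deposited ARVM signal is a read count divided by 1 size factor per library. Reads were recovered from the step of each library, with 100% of the values whole within 0.01 reads. In ha211 the smallest value is 2 reads. The deposited Cfib signal shares no such step, since 7% to 12% of the 200 lowest values per library were multiples of the smallest within 0.05 steps, and gives no depth.

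The main test was limma 3.58.1 under R 4.3.3 (trended eBayes) on log2(value + 1), fitted on each whole table with a Benjamini-Hochberg threshold of 0.05. Fold changes on this scale understate the change of low genes. The recovered reads were tested with DESeq2 1.42.0 and with the quasi-likelihood test of edgeR 4.0.16 after TMM. Exact permutation tests used Python 3.11.15. Tested on simulated data with 200 changed genes (log2 change 2), limma found 198 of them with 14 other calls for the 7052 ARVM genes, and 200 with 9 other calls for the 2115 Cfib genes. The simulation gave all genes of a comparison the same noise setting and left most genes unchanged, unlike the selected genes here. Its counts therefore check the working of the test and give no error rate for the deposited genes. Alternatives were pseudocounts of 0.1 and 10, a filter on the mean (at least 50 in ARVM, at least 5 in Cfib), the median of ratios, untrended eBayes, leaving out single libraries, both count tests for ARVM, and, for Cfib, a replicate block and the averaging of the PH libraries. The members and lists were chosen with earlier results of these data known. Named were all members and further complement genes that were listed, except 1 item that is counted but not reported here, a few cell markers, and the 3 genes most correlated with the member of largest change per table. Promoters and gene order come from RefSeq on GRCr8, in which all 9 members were found by symbol and 4 had a promoter entry.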

Additional observations from a re-analysis of the deposited data

How the results depend on the processing

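In ARVM, all 8 members and between 13 and 18 of the 18 further genes passed as higher under each alternative, the low end being a minimum mean of 50, which tests fewer of them. With each library left out in turn, 8 members and 17 to 18 further genes were higher in ARVM, and 3 members and 5 further genes in Cfib. In Cfib, a minimum mean of 5 left 1 member higher (CLU), since C1QA and C1QB fall under it, and averaging the PH libraries left 2. Of the 5 further genes higher in Cfib, 3 passed after the median of ratios and 3 with the PH libraries averaged, CD46 and COLEC12 being lost. Averaging leaves 1 PH sample and did not move the values of these genes (0.45 and 0.47). Under the median of ratios, which moved the median gene by −0.27, their values were 0.16 and 0.22, and the cause of the lost calls was not tested. Over all members and further genes, 343 of the ARVM and 122 of the Cfib gene values under the alternatives kept their direction and call, 3 and 5 lost the call, and none reversed. With a replicate block in Cfib, 3 members and 5 further genes were higher and 1 of each lower, as without the block, and no call changed. Nothing in the labels says that libraries of equal number belong together, and the deviations of equal numbers correlated at 0.258, 0.0312 and 0.259. No paired analysis was possible for ARVM because the groups share no replicate numbers. The 3 libraries per group and, in freshly isolated ARVM, the 5 reads of C1qc and 3 of C5ar1 limit the precision.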
